A study of Mus musculus with 12 samples.

Results

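The 10 genes described here, Ndn, Cdkn1c, H19, Igf2, Peg3, Dlk1, Grb10, Plagl1, Mest and Zfp57, are imprinted regulators of growth or, in the case of Zfp57, a regulator of imprinting itself. They were taken by gene symbol from a table of 22142 probe sets, with the probe set of highest mean kept for each gene, and 9 of the 10 had a probe set under their symbol. After a filter on weak signals 8 of the 9 were tested, among 14620 tested genes of 19494 with a named probe set. Peg3 lay below that filter and H19 had no probe set under its own symbol. The choice of genes used no measured value, but it was made with earlier results of these data known, among them differences between genotypes for Ndn and Zfp57.

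RNA came from blood-forming cells of untreated mice at steady state. The knockout mice (KO) were Nfat5 fl/fl Vav-Cre, in which a Cre driven by Vav removes the floxed Nfat5 from haematopoietic cells, and the control mice (WT) were Nfat5 +/+ Vav-Cre, so that both genotypes carried the same Cre. NFAT5 is the transcription factor by which cells adapt to hypertonic surroundings. From the bone marrow of each mouse 2 populations within LSK were sorted, haematopoietic stem cells (HSC, CD48-CD150+) and multipotent progenitors (MPP, CD48+CD150-). There were 3 KO mice (numbers 2, 11 and 70) and 3 WT mice (3, 12 and 64), each with 1 HSC and 1 MPP array, which gave 12 arrays in 4 groups of 3. The sources used here do not give the age or sex of the mice. All values are log2 signals after RMA normalization of microarrays hybridised with amplified RNA, from 300 pg per sample. On this scale a difference of 1 is a doubling, and the level of one probe set cannot be set against that of another.

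An imprinted gene is read mainly from 1 of its parental copies, because DNA methylation laid down in the germ line marks the copies of father and mother differently. In general, genes read from the father's copy, such as Igf2, Dlk1, Peg3, Plagl1 and Mest, promote growth of the embryo, while genes read from the mother's copy, such as Cdkn1c, Grb10 and H19, restrain it. Ndn, read from the father's copy, encodes necdin, a growth suppressor, and is an exception to that pattern. In the bone marrow Ndn and Cdkn1c are known for the quiescence of stem cells, and Zfp57, which is not itself imprinted, encodes a zinc finger protein that keeps the methylation of imprint control regions through development.

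Nfat5 read 53.1% of the WT signal in KO HSC and 54.8% in KO MPP, with every KO array below every WT array of its population (two-sided exact permutation p = 0.1 each, the smallest that 3 against 3 allows). Whether its probes lie in the floxed exons is not stated in those sources. The summed markers followed the sort: the mean of 16 stem cell markers was 7.95 to 8.43 on HSC and 6.99 to 7.19 on MPP arrays, and that of 11 progenitor markers 5.98 to 6.25 on HSC and 8.71 to 8.92 on MPP arrays. Array medians lay between 5.81 and 5.91. Of all arrays, that of the HSC of KO mouse 2 deviated most from its group, with an SD of 0.438 across genes against 0.276 to 0.378 elsewhere, and calls that change without it are named beside the gene.

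The promoters of the genes whose values differ most are shown first, since imprinting acts on promoter and control region DNA. Each line is the 250 bases before an annotated start, 5′ to 3′ on the strand of the gene, from RefSeq on GRCm38.p6. Capitals mark TGGAAA, the core to which NFAT factors bind, or TGCCGC, the core of the motif of ZFP57, on either strand, so that TTTCCA and GCGGCA are the same motifs on the other strand. These motifs do not overlap in letters. The lines are Ndn at chr7:62348027-62348276 on the plus strand, both annotated starts of Grb10 at chr11:12027972-12028221 and chr11:12037421-12037670 on the minus strand, and the first annotated start of Zfp57 at chr17:37000913-37001162 on the plus strand. They are joined by Plagl1 at chr10:13090582-13090831 and the second annotated start of Mest at chr6:30737800-30738049, both on the plus strand, which hold the ZFP57 motif before the start. The stretches before the later annotated starts of Zfp57 hold neither motif and are not printed. That of the first Mest start holds neither motif, and that of the third overlaps the one printed and shares its matches.
Ndn: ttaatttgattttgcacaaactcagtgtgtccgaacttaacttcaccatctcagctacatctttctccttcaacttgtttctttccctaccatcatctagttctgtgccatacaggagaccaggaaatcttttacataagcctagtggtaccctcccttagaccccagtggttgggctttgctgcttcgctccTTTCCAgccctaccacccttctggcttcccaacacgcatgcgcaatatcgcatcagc
Grb10, downstream start: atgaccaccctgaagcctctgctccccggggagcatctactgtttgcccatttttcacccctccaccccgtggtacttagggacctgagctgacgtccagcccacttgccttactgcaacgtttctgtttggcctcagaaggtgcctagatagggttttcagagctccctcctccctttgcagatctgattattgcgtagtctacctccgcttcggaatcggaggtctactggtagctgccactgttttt
Grb10, upstream start: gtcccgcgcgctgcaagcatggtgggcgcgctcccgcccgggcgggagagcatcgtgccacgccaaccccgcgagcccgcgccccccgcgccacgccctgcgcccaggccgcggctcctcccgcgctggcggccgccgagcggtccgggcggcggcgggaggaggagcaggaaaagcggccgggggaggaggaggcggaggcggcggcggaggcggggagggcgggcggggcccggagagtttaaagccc
Zfp57: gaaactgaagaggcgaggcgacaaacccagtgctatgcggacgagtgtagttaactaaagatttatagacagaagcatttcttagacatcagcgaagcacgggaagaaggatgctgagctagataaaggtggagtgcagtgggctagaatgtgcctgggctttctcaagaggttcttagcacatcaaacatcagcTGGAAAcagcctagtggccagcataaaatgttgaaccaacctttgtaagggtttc
Plagl1: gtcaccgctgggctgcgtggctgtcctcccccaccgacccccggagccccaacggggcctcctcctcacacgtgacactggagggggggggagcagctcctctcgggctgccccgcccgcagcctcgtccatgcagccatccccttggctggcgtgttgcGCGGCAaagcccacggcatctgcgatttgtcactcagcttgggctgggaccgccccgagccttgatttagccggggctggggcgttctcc
Mest: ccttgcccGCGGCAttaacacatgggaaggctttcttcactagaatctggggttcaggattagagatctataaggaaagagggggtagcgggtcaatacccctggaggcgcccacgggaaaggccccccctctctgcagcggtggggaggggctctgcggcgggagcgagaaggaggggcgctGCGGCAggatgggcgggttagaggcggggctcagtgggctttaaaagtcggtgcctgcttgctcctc

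In windows of 300 bases, 250 before and 50 after the start, 8 of the 10 genes had 16 windows. TGGAAA was found in 5 of the 16, from 4 genes, against 21.4% of all 32851 windows. The match for Ndn lay at -57 to -52 from the start, that for the first Zfp57 window at -55 to -50, and the others were those of Peg3, Dlk1 and the third Zfp57 window. TGCCGC was found in 5 of the 16 windows, from 4 genes (Igf2, Grb10, Plagl1 and Mest), against 11.6% of all windows. In Grb10 it lay after the upstream start, at 24 to 29, and so outside the stretch printed. That upstream window of Grb10 held 45 CpG dinucleotides at 80.0% G and C, above 98.4% of all windows, while the downstream one held 9 and the median window 7. Ndn held 11, Plagl1 26 and the 3 Mest windows 8, 17 and 17. A match of letters is a description and shows no binding.

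Ndn had its highest levels in stem cells, and among them in those of KO mice. In WT HSC it read 6.53, 5.94 and 6.93 on the arrays of mice 3, 12 and 64, and in the MPP of the same mice 5.53, 5.07 and 5.22. In KO HSC it read 7.57, 7.32 and 7.45 on the arrays of mice 2, 11 and 70, and in their MPP 5.30, 5.49 and 5.96. HSC and MPP arrays did not overlap in either genotype, and KO HSC arrays were also all above WT HSC arrays, while KO and WT MPP overlapped. In bulk RNA like this, a higher share of cells that express a gene cannot be told apart from more RNA per cell.

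**Figure D1:**
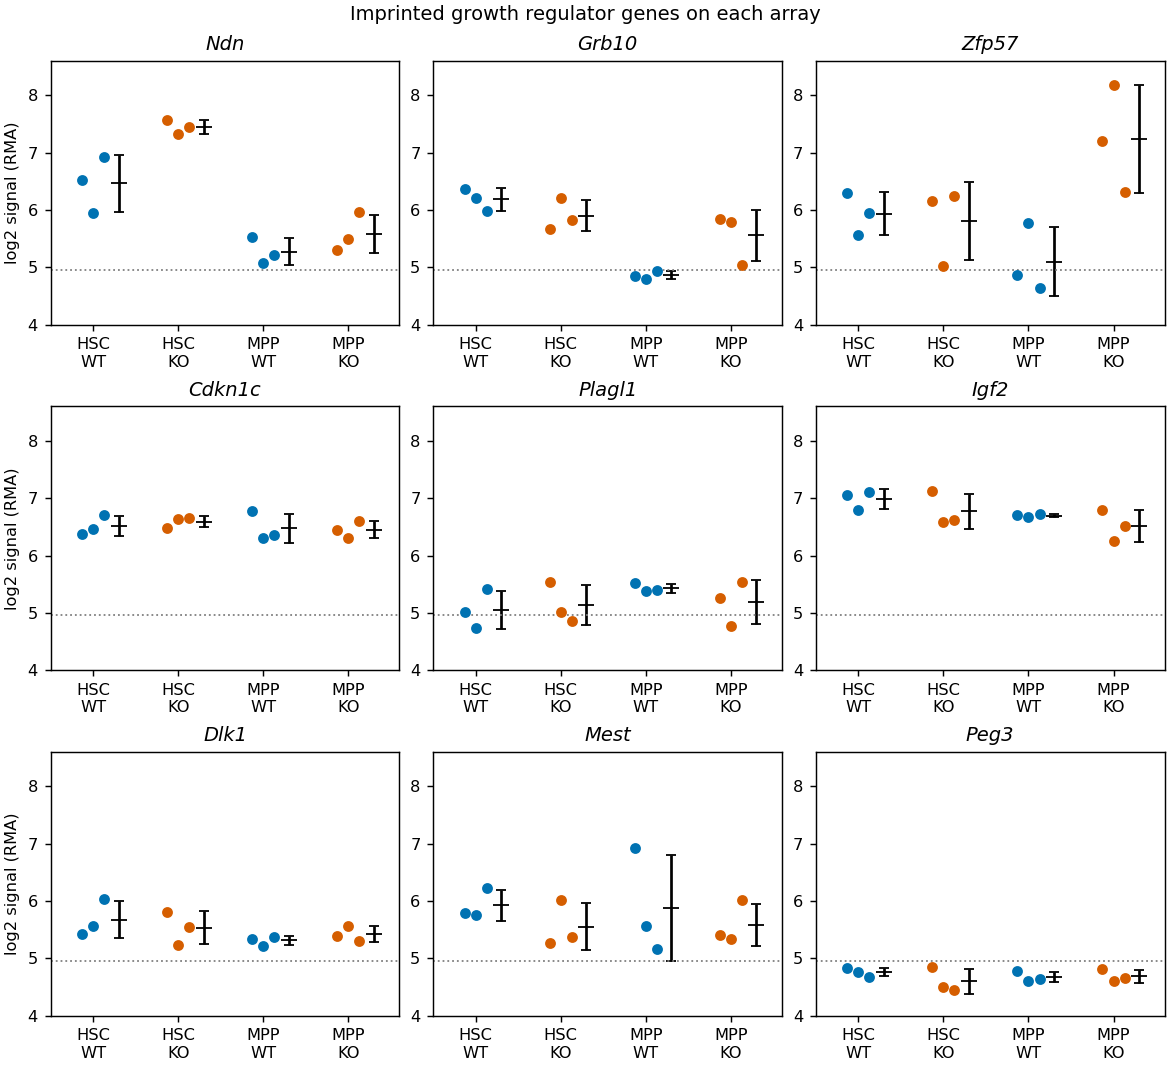
Log2 signal of the 9 genes with a probe set on each array, by population and genotype (blue, WT; orange, KO), with the mean and SD of each group of 3 in black and a dotted line at the filter value of 4.96. Ndn is highest on the 3 KO HSC arrays, Grb10 is low on the 3 WT MPP arrays, Zfp57 is highest on the 3 KO MPP arrays, and Peg3 lies below the filter throughout.

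Between populations the difference of Ndn passed the test in both genotypes. In WT, HSC stood above MPP by 1.19 (SE 0.26, 95% interval 0.63 to 1.76), a 2.29-fold higher signal (adjusted p = 0.0421 by limma over all tested genes). With the mouse as a block the adjusted p was 0.0782, and it lay between 0.0576 and 0.293 when any 1 of the 6 mice was left out, so this call does not hold without each mouse. In KO the difference was 1.86 (SE 0.26, 95% interval 1.30 to 2.43), a 3.64-fold higher signal (adjusted p = 0.00563). This call was kept with the block (adjusted p = 0.0285) and lost without mouse 2 (0.0894) or mouse 11 (0.0617). Within each mouse HSC read above MPP in 6 of 6 animals, by 0.87 to 1.71 in WT and by 1.49 to 2.27 in KO.

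Between genotypes Ndn stood 0.98 higher in KO than in WT HSC (SE 0.26, 95% interval 0.41 to 1.54), or 1.97-fold, which did not pass over all genes (adjusted p = 0.569 by limma). It ranked 73 by p among the 14620 genes. In MPP the difference was 0.31 (SE 0.26, adjusted p = 1). The difference between these genotype effects was 0.67 (SE 0.36, adjusted p = 1), so a larger effect in stem cells was not shown. Ndn was 1 of 8 tested genes of the group whose KO and WT HSC arrays did not overlap, against 8.87% of all tested genes, and 0 of 8 passed, as did 0% of all genes. By limma 919 genes had an unadjusted p under 0.05 in that comparison, and of the 8 only Ndn was among them.

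Few neighbours of Ndn on chromosome 7 could be tested. Of 7 listed genes of the cluster 5 had a probe set and 4 were tested, of which none passed in any comparison. Magel2, a gene of the same MAGE family read from the same parental copy, had group means of 5.33 to 5.51 and a difference of 0.02 between HSC and MPP in WT (SE 0.18, adjusted p = 0.978). Peg12 had its highest mean in KO HSC, at 7.70 ± 0.57, followed by WT HSC at 7.52 ± 0.68, WT MPP at 7.07 ± 0.62 and KO MPP at 6.82 ± 0.38 (SD, n = 3). Its HSC minus MPP difference was 0.45 in WT (SE 0.42, adjusted p = 0.689) and 0.88 in KO (SE 0.42, adjusted p = 0.43). In WT Ube3a, a ubiquitin ligase, stood at 0.21 (SE 0.23) and Atp10a, a phospholipid flippase, at -0.45 (SE 0.24). The cluster's median was 0.11 and that of all tested genes 0.03. Whether the neighbours differ from Ndn was not tested.

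**Figure D2:**
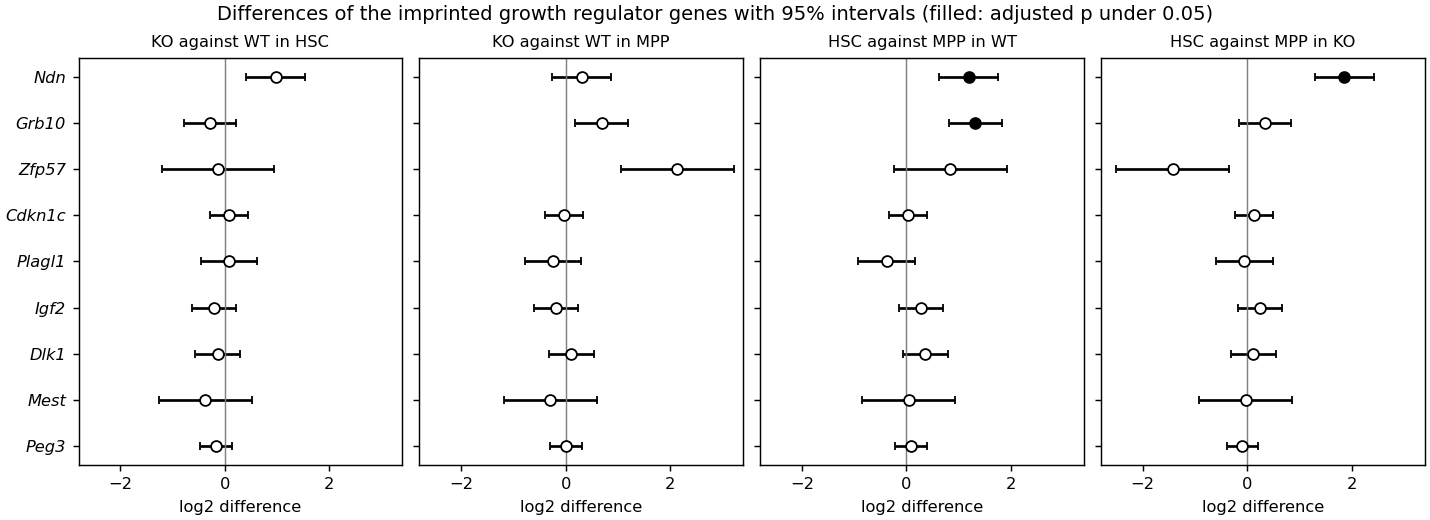
Log2 difference of each gene in 4 comparisons with its 95% interval, from 1 limma fit, where filled points have an adjusted p under 0.05. Filled points are Ndn and Grb10 for HSC against MPP in WT and Ndn in KO, and Peg3, which lay below the filter, is shown from a fit without the filter.

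Cdkn1c, the CDK inhibitor p57, varied little. It read 6.38, 6.46 and 6.70 in WT HSC, 6.48, 6.64 and 6.65 in KO HSC, 6.77, 6.30 and 6.35 in WT MPP and 6.45, 6.31 and 6.60 in KO MPP. The 4 groups overlapped, and the range over all 12 arrays was 0.46, a range below which lay 5.03% of the tested genes. HSC minus MPP was 0.04 in WT, with a 95% interval of -0.32 to 0.40, and KO minus WT in HSC was 0.07, with an interval of -0.29 to 0.44. These intervals leave room for differences of about that size in either direction.

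Among 20 tested genes of the CDK inhibitors and the G1 phase, 2 passed in WT, both lower in HSC, where 2.07% of all genes passed, and none passed in KO or between genotypes. Cdk6, a kinase that drives exit from quiescence, fell by 1.33 (SE 0.25, adjusted p = 0.0259), and Cdkn2c, the inhibitor p18, fell by 1.81 (SE 0.39, adjusted p = 0.0424). Both calls were lost with the mouse as a block, at adjusted p = 0.0782 for Cdk6 and 0.128 for Cdkn2c. They were also lost without WT mouse 3 or 64, as was Cdk6 without KO mouse 70 and Cdkn2c without WT mouse 12 or KO mouse 2, at adjusted p of up to 0.202 for Cdk6 and 0.295 for Cdkn2c. Leaving out just the HSC array of KO mouse 2 lost Cdkn2c too (adjusted p = 0.053), as did a second quantile normalization (0.0533). With only the arrays compared, Cdk6 was lost (0.0685). Rbl1, the pocket protein p107, stood at -1.60 (SE 0.38, adjusted p = 0.0604) and E2f5, an E2F partner of the pocket proteins, at 1.31 (SE 0.33, adjusted p = 0.083). Both passed without KO mouse 2, at adjusted p = 0.0242 for Rbl1 and 0.0205 for E2f5, as did Rbl1 with array weights (0.0402) and E2f5 with only the arrays compared (0.0445). The median of the list was -0.44, with 14 of 20 differences below 0, where the median of all genes was 0.03 and 54.2% of all differences were above 0. Between genotypes Cdk6 stood at 0.47 (SE 0.25) in HSC and Cdkn2c at -0.88 (SE 0.39) in MPP, with adjusted p of 0.848 and 1.

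Grb10 encodes an adaptor that binds and inhibits the insulin and IGF1 receptors. In WT it read 6.37, 6.22 and 5.98 in the HSC and 4.86, 4.80 and 4.95 in the MPP of mice 3, 12 and 64. In KO it read 5.67, 6.21 and 5.83 in HSC and 5.84, 5.79 and 5.04 in MPP of mice 2, 11 and 70. WT MPP arrays were the 3 lowest of all 12 and close together, at 4.87 ± 0.072 (SD, n = 3), below all other arrays, while KO MPP overlapped with KO HSC. Each WT MPP array lay below 4.96, the filter value that Grb10 passed by its mean over all arrays, so that its level there is a weak signal and no fold is given against it.

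In WT the difference of Grb10 between HSC and MPP was 1.32 (SE 0.23, 95% interval 0.82 to 1.82, adjusted p = 0.0154 by limma). It was kept with the mouse as a block, at adjusted p = 0.0481, and lost without mouse 3 (0.149), mouse 12 (0.135) or mouse 64 (0.0907), that is, without any 1 of the WT mice. In KO the difference was 0.35 (SE 0.23, 95% interval -0.16 to 0.85, adjusted p = 0.589). Within mice HSC minus MPP was 1.51, 1.42 and 1.04 in WT and -0.17, 0.42 and 0.79 in KO. The WT differences rest on the weak MPP signals, and how often such differences separate the genotypes over all genes was not counted.

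The change between genotypes itself did not pass. Grb10 stood 0.69 higher in KO than in WT MPP (SE 0.23, 95% interval 0.19 to 1.19, adjusted p = 1). In HSC its KO minus WT difference was -0.29 (SE 0.23, adjusted p = 0.933). The difference between both effects was -0.98 (SE 0.32, adjusted p = 0.995 by limma). Grb10, with the weak signal in WT, and Zfp57 were the 2 of 8 tested genes whose KO and WT MPP arrays did not overlap, against 9.49% of all tested genes, and 0 of 8 passed, as did 0% of all genes. In that comparison 466 genes had an unadjusted limma p under 0.05, Grb10 and Zfp57 among them.

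**Figure D3:**
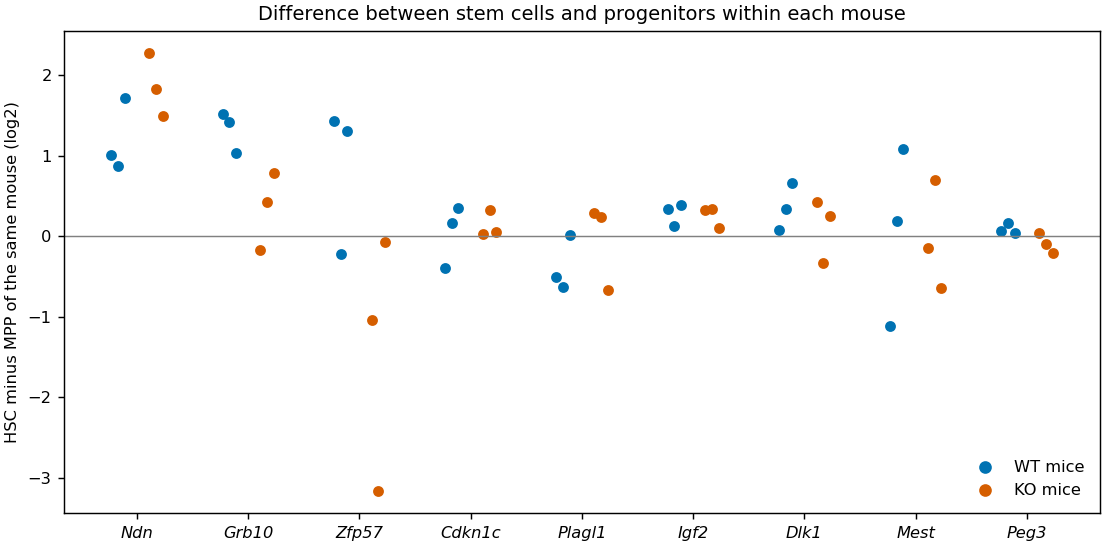
HSC minus MPP log2 difference of the 9 genes within each of 3 WT (blue) and 3 KO (orange) mice, where points above 0 are higher in stem cells. Ndn is above 0 in 6 of 6 mice, Grb10 at 1.04 to 1.51 in WT and -0.17 to 0.79 in KO, and Zfp57 falls to -3.16 in 1 KO mouse.

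Neighbours of Grb10 are given beside it, and whether they differ from it was not tested. Ikzf1, the lymphoid transcription factor Ikaros, lies in the same region. It was lower in HSC by 1.46 in WT (SE 0.22, adjusted p = 0.00707) and by 1.07 in KO (adjusted p = 0.0423). The WT call was lost without mouse 3 (0.0895) or mouse 64 (0.0782), and the KO call was not put through the alternative settings. Ddc, an amino acid decarboxylase that shares an imprinted domain with Grb10, stood at 0.02 in WT (SE 0.15), Fignl1 at -1.11 (SE 0.63) and Cobl at 0.21 (SE 0.20). Of these 4 tested genes, 1 passed in each genotype and none between genotypes.

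Igf2, the growth factor IGF2, was slightly higher in stem cells in each mouse, but not beyond the test. It read 7.05, 6.79 and 7.11 in WT HSC against 6.71, 6.67 and 6.72 in WT MPP, and 7.12, 6.58 and 6.61 in KO HSC against 6.80, 6.25 and 6.52 in KO MPP. WT arrays of HSC and MPP did not overlap, and KO arrays did. HSC minus MPP was 0.28 in WT (SE 0.19, adjusted p = 0.555) and 0.25 in KO (SE 0.19, adjusted p = 0.644), and it was above 0 in 6 of 6 mice, by 0.096 to 0.39. KO minus WT was -0.21 in HSC and -0.18 in MPP (SE 0.19 each).

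H19, the long RNA next to Igf2, has its microRNA miR-675 within the transcript, and the probe set of Mir675 (chr7:142577064-142577147, inside H19 at chr7:142575530-142578146 on GRCm38.p6) was read in its own right. It is not counted as H19. Mir675 read 5.35, 6.37 and 5.52 in WT HSC, 6.18, 6.42 and 5.90 in KO HSC, 5.50, 5.25 and 5.20 in WT MPP and 5.43, 5.35 and 5.40 in KO MPP. The 3 KO HSC arrays were above all KO MPP arrays, by 0.77 (SE 0.24) on average with an adjusted p of 0.198, and the WT arrays overlapped.

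The rest of the IGF pathway showed no gene past the test. Of 38 listed genes 34 had a probe set and 30 were tested, and by limma 0 of the 30 passed in each of the 4 comparisons of groups. In WT HSC against MPP the lowest p was that of Igfbp4, an IGF binding protein, at -0.56 (SE 0.14, adjusted p = 0.087). Hmga2, a chromatin protein that activates Igf2bp2, stood at 0.36 (SE 0.13, adjusted p = 0.23), and Rptor, a subunit of mTORC1, at -0.55 (SE 0.23, adjusted p = 0.304). The imprinted scavenger receptor of IGF2, Igf2r, stood at 2.08 (SE 0.55, adjusted p = 0.10) with group means of 8.19 ± 0.31 in WT HSC and 6.11 ± 0.47 in WT MPP (SD, n = 3). Igf2r passed without KO mouse 2 (adjusted p = 0.0275) or without its HSC array (0.0225). Between genotypes Akt1, the kinase downstream of the receptor, stood at 1.77 in HSC (SE 0.55, adjusted p = 0.638), and Pik3r1, the regulatory subunit of PI3 kinase, at -0.68 in MPP (SE 0.26, adjusted p = 1).

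Dlk1 encodes a membrane protein with EGF repeats that is related to Notch ligands. It read 5.42, 5.56 and 6.04 in WT HSC, 5.34, 5.22 and 5.38 in WT MPP, 5.81, 5.24 and 5.55 in KO HSC and 5.39, 5.57 and 5.30 in KO MPP. WT HSC arrays lay just above WT MPP arrays, with a difference of 0.36 (SE 0.20, adjusted p = 0.451), and KO arrays overlapped (0.12, SE 0.20). Of 16 tested Notch pathway genes 0 passed by limma in each of the 4 comparisons, and the lowest p in WT was that of Nrarp, a Notch target, at 0.67 (SE 0.28, adjusted p = 0.314). Beside Dlk1 on chromosome 12, 0 of 5 tested genes passed, with Yy1, a zinc finger transcription factor, at -0.90 (SE 0.29, adjusted p = 0.178), which passed without KO mouse 11 (0.0487).

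Plagl1, a zinc finger factor known to regulate other imprinted genes, was the only tested gene of the group with a lower mean in WT HSC than in WT MPP. Its arrays read 5.01, 4.74 and 5.41 in WT HSC, 5.52, 5.38 and 5.40 in WT MPP, 5.54, 5.01 and 4.87 in KO HSC and 5.25, 4.78 and 5.54 in KO MPP. The readings of 4.74 in WT HSC, 4.87 in KO HSC and 4.78 in KO MPP lay below the filter value of 4.96. The groups overlapped, and the difference of -0.38 in WT (SE 0.25), which takes in the 4.74, had an adjusted p of 0.541 by limma. Mest, an enzyme of the alpha/beta hydrolase fold, ranged from 5.16 to 6.91, both of these in WT MPP, so that its differences of 0.05 in WT and -0.03 in KO had SEs of 0.40. Peg3, a zinc finger protein of growth and maternal care, read 4.44 to 4.84 on all 12 arrays and was below the filter value of 4.96 on each of them.

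Zfp57 had the widest range of the group, 3.54 between its lowest and highest array, which was wider than that of 97.6% of the tested genes. In MPP it read 7.21, 8.19 and 6.32 in KO mice 2, 11 and 70, and 4.87, 5.78 and 4.65 in WT mice 3, 12 and 64. In HSC it read 6.16, 5.03 and 6.24 in KO and 6.30, 5.56 and 5.96 in WT. KO MPP arrays were the 3 highest of all 12, above each WT MPP array, while KO and WT HSC overlapped. WT mice 3 and 64 lay below the filter value in MPP, so no fold is given. Mouse 11 gave both the highest KO value in MPP and the lowest KO value in HSC.

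KO minus WT was 2.14 for Zfp57 in MPP (SE 0.49, 95% interval 1.06 to 3.22), which ranked 10 by p among 14620 genes and had an adjusted p of 1. In HSC it was -0.13 (SE 0.49, 95% interval -1.21 to 0.95, adjusted p = 0.995). The difference between both effects was -2.27 (SE 0.69, adjusted p = 0.988 by limma), again short of the threshold, and it was -1.40 without KO mouse 11 and -2.94 without KO mouse 70. Averaged over both arrays of each mouse, Zfp57 read 6.28 to 6.69 in KO and 5.30 to 5.67 in WT mice, a mean difference of 1.0 (SE 0.16, 95% interval 0.62 to 1.39). This ranked 8 by p among all genes (adjusted p = 0.897 by limma), in a comparison in which 0 genes passed and 650 had an unadjusted p under 0.05. The WT means take in the MPP signals below the filter value, so no fold is given here either. This average joins -0.13 in HSC with 2.14 in MPP, so its small SE does not show a shared effect in both populations. For KO mouse 11 a high MPP value of 8.19 and a low HSC value of 5.03 offset each other in the mean. Leaving out any 1 mouse kept the difference in MPP between 1.66 and 2.60.

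Within KO mice Zfp57 was lower in HSC than in MPP, with differences of -1.05, -3.16 and -0.08 in mice 2, 11 and 70. The fitted difference was -1.43 (SE 0.49, adjusted p = 0.25), and it was -0.56 without mouse 11 and -2.10 without mouse 70. In WT it was 0.84 (SE 0.49, adjusted p = 0.492), with mice 3 and 64 at 1.43 and 1.31 and mouse 12 at -0.22.

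The gene most like Zfp57 over the 12 arrays was Gzmb, granzyme B of cytotoxic lymphocytes, with r = 0.91, followed by Trim66 with r = 0.81. Gzmb read 5.49, 6.03 and 5.34 in KO MPP and 4.87, 5.21 and 4.99 in WT MPP, a difference of 0.60 (SE 0.23, adjusted p = 1). Of 10 T and NK cell markers 4 lay below the filter. The mean of all 10 was 5.23 to 5.46 in KO MPP and 5.29 to 5.40 in WT MPP, and so overlapped between genotypes. KO and WT MPP arrays of Gzmb did not overlap, as for 9.49% of all tested genes. Gzmb was picked by its likeness to Zfp57, so this is no separate finding, and its 4.87 in WT MPP lay below the filter value. Of 6 tested markers 4 stood above 0 for KO against WT in MPP and 2 below, among them Nkg7 at -0.34 (SE 0.20). The part of Gzmb-expressing cells in the difference of Zfp57 was not tested.

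Among 21 tested genes that keep or erase imprint methylation, 1 passed between HSC and MPP in WT, where 2.07% of all genes passed, and none in KO, while no gene at all passed for the difference between genotypes in this contrast. Uhrf1, which brings the maintenance methyltransferase to newly replicated DNA, was lower in HSC than in MPP by 1.21 in WT (SE 0.22, adjusted p = 0.0186), at 8.21 ± 0.068 against 9.42 ± 0.17 (SD, n = 3). Without WT mouse 3, 12 or 64 the call was lost, at adjusted p = 0.167, 0.103 and 0.174. Zfp445, the other zinc finger protein of imprint maintenance, stood at -1.16 (SE 0.32, adjusted p = 0.12), Hells, a chromatin remodeller, at -1.42 (SE 0.43, adjusted p = 0.148), and Cbx3, a heterochromatin protein, at -0.60 (SE 0.17, adjusted p = 0.131). Zfp445 and Hells passed without KO mouse 2 (adjusted p = 0.033 and 0.0242) or without its HSC array alone (0.0202 and 0.0236), and Hells also with only the arrays compared (0.023). In all, 15 of 21 differences were below 0, with a median of -0.27, against a median of 0.03 for all genes, of which 54.2% were above 0.

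Between genotypes none of these 21 genes passed by limma. Tet1, which oxidises methylated cytosine, read 6.59 to 6.86 in KO and 7.71 to 8.41 in WT HSC, a difference of -1.33 (SE 0.39, adjusted p = 0.638) with no overlap, and stood at -0.93 in MPP (SE 0.39, adjusted p = 1), where the arrays overlapped. Ehmt2, a histone H3 lysine methyltransferase, read 7.15 to 7.74 in KO and 6.48 to 6.80 in WT MPP, a difference of 0.73 (SE 0.18, adjusted p = 1).

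**Figure D4:**
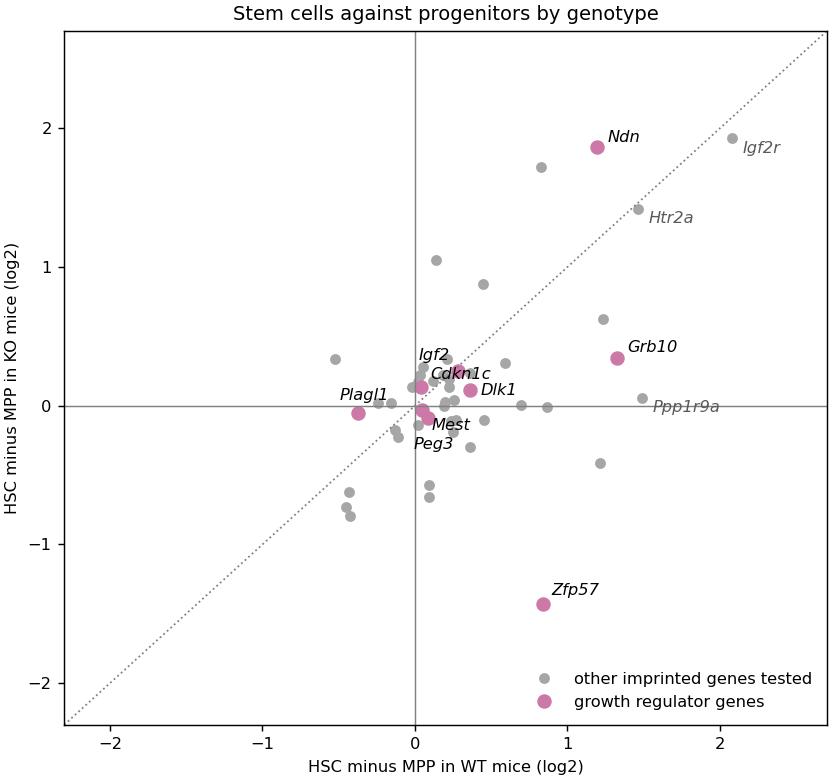
HSC minus MPP log2 difference in WT mice (horizontal) and in KO mice (vertical) for the 9 growth regulator genes (large points) and 40 other imprinted genes (grey), with a dotted line where both are equal. Ndn lies at 1.19 and 1.86, Grb10 at 1.32 and 0.35, and Zfp57 at 0.84 and -1.43, while the other 6 genes lie near the centre.

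Set against all genes, the group held 2 of 8 tested genes that passed between HSC and MPP in WT, Ndn and Grb10, both higher in HSC, where 2.07% of all tested genes passed (302 genes, 109 higher and 193 lower). A fit with a block for the mouse called 180 genes, with Grb10 among them and without Ndn, and 82, 96 and 71 genes passed without WT mouse 3, 12 and 64. Arrays did not overlap for 4 of 8, Ndn, Igf2, Dlk1 and Grb10, against 21.3% of all genes. Of the 8 differences, 7 were above 0, against 54.2% of all genes. In each of these WT counts Grb10 rests on MPP signals that all lay below the filter value of 4.96. In KO mice 1 of 8 passed, Ndn, where 1.26% of all genes passed (184 genes, and 113 with the block). Without KO mouse 2, 11 or 70 the count over all genes was 59, 83 and 87, and 104 without the HSC array of mouse 2. Arrays did not overlap there for Ndn and Zfp57, in opposite directions, against 17.1% of all genes. The members' median was 0.32 in WT and 0.13 in KO, against 0.03 and 0.05 for all genes.

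Other imprinted genes are given for comparison. Of 59 listed, 47 had a probe set and 40 were tested. In WT, 2 of the 40 passed, where 2.07% of all genes did, and both were higher in HSC: Htr2a, a serotonin receptor, by 1.46 (SE 0.27, adjusted p = 0.0206) and Ppp1r9a, the actin-binding scaffold neurabin, by 1.49 (SE 0.31, adjusted p = 0.0372). Htr2a also passed in KO, at 1.42 (adjusted p = 0.03 by limma), a call that was not put through the alternative settings. Its WT call was lost with the mouse as a block (adjusted p = 0.0629). Without WT mouse 3, 12 or 64 both WT calls were lost, at adjusted p = 0.129 to 0.183 for Htr2a and 0.202 to 0.231 for Ppp1r9a. In WT 31 of the 40 differences were above 0, with a median of 0.20, and in KO 24 of 40, with a median of 0.03 that was near the 0.05 of all genes. Between genotypes 0 of 40 passed in HSC or in MPP by limma. Ppp1r9a stood at -1.01 in KO HSC (SE 0.31, adjusted p = 0.638), with 7.46 to 8.54 in KO against 8.85 to 9.24 in WT, and Sfmbt2, a polycomb protein, at -0.59 in KO MPP (SE 0.20, adjusted p = 1).

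In the cluster of Cdkn1c 9 neighbours were tested and none passed in any of the 4 comparisons. Phlda2, a growth restrainer of the placenta, stood at 1.23 in WT HSC against MPP (SE 0.43, adjusted p = 0.209), and Kcnq1ot1, the long RNA that silences the cluster, at 0.86 (SE 0.39, adjusted p = 0.355). None passed among 5 tested neighbours of Igf2, 4 of Plagl1 or 2 of Mest. Of the neighbours of Peg3, 2 had a probe set and both lay below the filter.

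The genes were not tightly linked to each other. Over the 12 arrays, which include both populations and so carry their difference, the correlations among the 8 tested genes lay between -0.67 for Grb10 with Plagl1 and 0.73 for Cdkn1c with Mest, and Ndn with Grb10 had 0.56. The gene most like Ndn among all tested was Clstn3, a calsyntenin, at r = 0.94. Those most like Grb10 were Sfxn3, a mitochondrial carrier, at 0.93 and Rab11a, a GTPase of recycling endosomes, at 0.91. For Igf2 they were Hdhd5 at 0.95 and Klk1b26 at 0.94, for Cdkn1c Tada3 at 0.92 and Mrpl30 at 0.88, and for Dlk1 Nfkbil1 and Col28a1, both at 0.90. For Plagl1 they were Zmiz2 at 0.87 and Sertad3 at 0.84, and for Mest Mt3 at 0.85 and Pcolce at 0.83. These values are the highest over all tested genes and have no test.

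Several of the genes, Igf2, Dlk1, Peg3 and Mest among them, are known from mesenchymal tissues, so markers of other cells are given beside them. The mean of 15 stromal and endothelial markers, of which 6 (Lepr, Col3a1, Vcam1, Kdr, Cdh5 and Adipoq) lay below the filter, was 5.55 to 5.59 in KO HSC, 5.49 to 5.66 in WT HSC, 5.46 to 5.50 in KO MPP and 5.47 to 5.60 in WT MPP. The mean of 11 neutrophil markers spread widely within each group, from 5.53 to 7.66 in KO HSC, 5.74 to 7.83 in WT HSC, 5.67 to 6.56 in KO MPP and 4.75 to 6.80 in WT MPP. The median difference of 10 tested neutrophil markers between HSC and MPP was 1.5 in WT, with 8 of 10 above 0, and 0.32 in KO, and between KO and WT it was -0.93 in HSC and 0.16 in MPP, with none passing. Their part in the levels of the growth regulators was not tested.

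**Figure D5:**
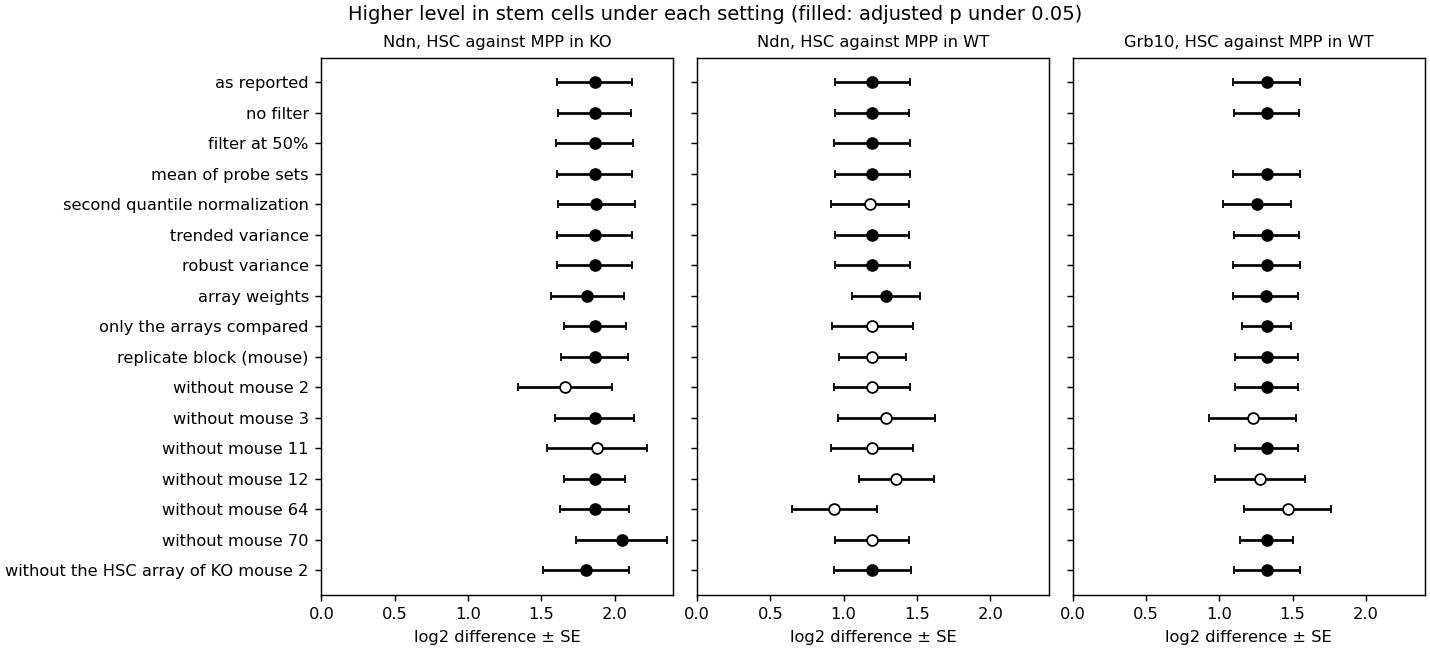
Log2 difference ± SE of Ndn in KO, Ndn in WT and Grb10 in WT between HSC and MPP under each setting, where filled points have an adjusted p under 0.05. All values stay above 0.9, filled points are 14 of 16 alternatives for Ndn in KO, 7 of 16 for Ndn in WT and 12 of 15 for Grb10, which was not tested at a filter of 50%.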

How the data were processed

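Total RNA of sorted HSC and MPP from 3 KO and 3 WT mice was amplified with NuGEN kits and hybridised to 1 array for each mouse and population, according to the labels' protocols. The authors deposited RMA-normalized log2 signals for each probe set, per the submitters' processing notes. These notes list limma too, without versions of either. RMA brings all arrays to 1 distribution, which removes any shift of the whole transcriptome and compresses differences of weak signals. Scanner files were not used here, and precision is limited by how few arrays there are.

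Of the probe sets, 19527 had 1 gene symbol, 0 had several and 2615 had none. For the 33 genes with several probe sets the one of highest mean was kept. The lowest 25% of genes by mean (below 4.96) were left out. The 4 groups were fitted together with limma 3.58.1 and statmod 1.5.0 in R 4.3.3, by two-sided moderated tests and Benjamini-Hochberg adjustment over all 14620 genes, at a threshold of 0.05. For the mean of both populations, each mouse's arrays were averaged. Peg3 was fitted without the filter. The fits were tested on simulated data. The replicates of a group are separate mice, so p-values between genotypes measure the spread between mice. The main fit treats the HSC and MPP array of a mouse as independent. Its p-values between populations, and for the difference between genotype effects, therefore do not use the pairing.

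HSC and MPP pair by mouse, as the labels give the animal. Deviations from the group mean correlated within mice at r = 0.032 to 0.091, and in 2 of 6 cases the highest correlation was with the array of the same mouse. A block for the mouse was tried as well, with a consensus correlation of 0.0723 where it was random. Others were no filter or a filter at 50%, the mean of probe sets, a second quantile normalization, trended or robust variance, array weights, a fit of just the arrays in a comparison and leaving out each mouse, and, added after the data were seen, leaving out the HSC array of KO mouse 2.

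The genes and the gene lists were chosen with earlier results of these data known. Named are all 10 genes, up to 4 genes per list with the lowest p between HSC and MPP in WT, up to 2 per list and population between genotypes, and the 2 genes most correlated with each member, of which 1 is not reported here. Promoter stretches come from RefSeq windows on GRCm38.p6.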

Additional observations from a re-analysis of the deposited data

Results flagged for a closer look

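Zfp57 and Grb10 were flagged by an unadjusted p under 0.05 in a limma test of the genotype effect in stem cells against that in progenitors. For Zfp57 the KO minus WT effect in HSC less that in MPP was -2.27 (adjusted p = 0.988), from -0.13 in HSC and 2.14 in MPP, and with 1 mouse left out it lay between -2.94 (without KO mouse 70) and -1.40 (without KO mouse 11). For Grb10 it was -0.98 (adjusted p = 0.995), from -0.29 in HSC and 0.69 in MPP. Neither passed over all 14620 genes, of which 658 had an unadjusted p under 0.05 in this test, so a difference between the effects was not shown. Both MPP effects also take in WT signals below the filter value, on each WT MPP array for Grb10 and on those of mice 3 and 64 for Zfp57.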

How the results depend on the processing

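Across 54 differences of the 9 growth regulator genes and up to 16 alternatives, 813 values were computed. Of these, 799 counted as unchanged, 14 lost a call, 0 gained one and 0 reversed. A difference smaller than its SE was taken to have no direction, so a change of its sign counted as unchanged. Peg3, below the filter, could not be called. Only HSC against MPP for Ndn in WT, Ndn in KO and Grb10 in WT had a call to lose. These calls were kept in 7 of 16, 14 of 16 and 12 of 15 alternatives. For HSC against MPP in WT 2 of the genes passed, but 1 did at a filter of 50%, where Grb10 was not tested, 1 with a second quantile normalization, 1 with only the arrays compared and 1 with the replicate block, and 0 to 2 when a mouse or array was left out. Over all genes in WT, 302 passed, 180 with the replicate block (154 of them shared) and 71 to 347 with a mouse or array left out. In KO 1 of the genes passed, and 0 to 1 with a mouse or array left out. Over all genes in KO, 184 passed, 79 with only the arrays compared, 113 with the replicate block (92 shared) and 59 to 167 with a mouse or array left out. Between genotypes in HSC 0 genes passed, and 0 to 1 with a mouse left out. The Ndn call in WT was also lost with a second quantile normalization (adjusted p = 0.0533) and with only the arrays compared (0.102). Copg2, a neighbour of Mest, stood at -0.99 for KO against WT in HSC (SE 0.95), and at -1.66 to 0.20 when a mouse or array was left out, with the value above 0 without KO mouse 2 or without its HSC array. With 3 mice per group, calls near the threshold depend on each animal. The causes of these changes were not tested.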
